A study of Homo sapiens with 2 samples.

Results

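Genes that regulate SREBPs, the sterol-sensing transcription factors, and genes that act on cell sterol or on lipoprotein receptors beside them were compared between KYN2 cells labelled HSF1 knockdown and KYN2 cells labelled control. They are SREBF1, SREBF2, SCAP, INSIG1, INSIG2, MYLIP, NPC1 and STARD4, chosen by gene name, and they make 8 of the 18665 genes that have a named probe on the array. KYN2 is a human cell line of hepatocellular carcinoma, a cancer of liver cells. The knockdown-labelled cells were a stable line selected with puromycin after transfection of a plasmid for a short hairpin RNA against HSF1, heat shock factor 1, the transcription factor that drives chaperone genes. The control cells are described by that word alone, so what plasmid they carried and whether they saw puromycin is not given in the sources used here. Each group holds 1 Illumina HumanWG-6 BeadChip array, 2 in all, and whether a line came from 1 clone is not stated. A single array per group leaves every difference below unreplicated, and no test was possible.

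SREBPs are transcription factors made as inactive precursors in the membrane of the endoplasmic reticulum. SCAP binds a precursor and escorts it to the Golgi when sterols are scarce, where proteases cut free the part that enters the nucleus and switches on genes of sterol and fatty acid synthesis and of lipoprotein uptake. When sterols are plentiful, INSIG proteins hold SCAP and its cargo back. In liver cells this loop sets how much cholesterol is made and taken up. NPC1 and STARD4 move sterol inside the cell, and MYLIP, also called IDOL, marks receptors of the low-density lipoprotein family for breakdown. The receptor for low-density lipoprotein is not itself among the 8 genes and is not analysed here. The arrays read transcripts, so the cutting of SREBP proteins was not measured.

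Promoter windows are shown for SREBF2, whose window alone of the 8 genes matched the sterol regulatory element, and for INSIG1, NPC1 and MYLIP, which had the 3 highest differences. RefSeq on GRCh38.p14 gave 9 windows for the 8 genes, from 250 bases before each transcription start to 50 after, each 300 bases long and written on the gene's own strand. Capitals mark matches, on either strand, to the sterol regulatory element TCACNCCAC or to the NF-Y box CCAAT, whose reverse reads ATTGG. The windows below are chr22:41832855-41833154 (+) for SREBF2, chr7:155297628-155297927 (+) for INSIG1, chr18:23586457-23586756 (-) for NPC1 and chr6:16128836-16129135 (+) for MYLIP.
SREBF2: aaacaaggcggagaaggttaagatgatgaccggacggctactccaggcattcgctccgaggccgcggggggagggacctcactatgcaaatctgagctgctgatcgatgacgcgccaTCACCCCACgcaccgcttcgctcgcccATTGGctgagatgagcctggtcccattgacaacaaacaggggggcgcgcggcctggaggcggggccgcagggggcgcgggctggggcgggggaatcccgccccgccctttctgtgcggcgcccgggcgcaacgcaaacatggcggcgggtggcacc
INSIG1: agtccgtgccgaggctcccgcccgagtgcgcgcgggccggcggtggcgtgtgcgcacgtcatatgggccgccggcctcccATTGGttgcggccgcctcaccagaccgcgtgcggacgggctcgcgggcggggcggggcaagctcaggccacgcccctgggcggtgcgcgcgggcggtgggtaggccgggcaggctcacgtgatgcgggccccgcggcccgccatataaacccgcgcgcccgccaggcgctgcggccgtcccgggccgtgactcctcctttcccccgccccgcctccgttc
NPC1: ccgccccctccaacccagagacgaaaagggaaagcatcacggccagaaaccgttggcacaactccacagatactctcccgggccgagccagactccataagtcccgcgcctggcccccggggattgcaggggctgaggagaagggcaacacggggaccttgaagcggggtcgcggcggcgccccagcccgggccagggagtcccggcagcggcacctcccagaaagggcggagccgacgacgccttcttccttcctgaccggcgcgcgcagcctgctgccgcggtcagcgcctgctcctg
MYLIP: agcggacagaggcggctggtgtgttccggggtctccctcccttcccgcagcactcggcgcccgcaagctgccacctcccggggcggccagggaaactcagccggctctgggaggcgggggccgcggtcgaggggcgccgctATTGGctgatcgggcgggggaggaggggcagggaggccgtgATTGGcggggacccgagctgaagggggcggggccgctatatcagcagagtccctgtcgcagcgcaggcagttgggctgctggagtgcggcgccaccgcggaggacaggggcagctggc

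The SREBF2 window held the sterol regulatory element 133 bases before the start and an NF-Y box after it, with 18 bases between them. That element occurs in 1.13% of the 35116 windows in the table. It matched 0 of the 23 windows of 16 of the sterol synthesis enzymes listed below. It also matched 0 of the 21 windows of 14 of the listed fatty acid and phospholipid synthesis genes. Those lists are of known SREBP targets, so the lack of a match does not set a gene apart from such targets. An NF-Y box was found for 4 of the 8 genes, SREBF2, INSIG1, MYLIP and STARD4, and in 34.6% of all windows. The Sp1 box GGGCGG was found for all 8 genes and in 45.0% of all windows, and the E-box CANNTG for 4 genes and in 68.7%. Some of the Sp1 boxes overlap one another. Pairs of inverted heat shock units, searched as GAANNTTC and TTCNNGAA because HSF1 binds such units, matched the windows of 0 genes and 6.77% and 7.74% of all windows. The LXR response element of the DR4 type, searched because LXR is known to drive MYLIP, also matched 0 genes and 0.0199% of all windows. These are letters in short windows, with no measure of binding, and sites farther away were not searched. The windows were between 66.0% and 78.3% G and C.

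Both SREBF genes carry a microRNA gene of the miR-33 pair inside their span in RefSeq. They are shown because in human and mouse cells miR-33 is known to act on NPC1, 1 of the 8 genes, and on the sterol exporter ABCA1, whose values are given further below. The mature forms hsa-miR-33a-5p, inside SREBF2 at chr22:41900949-41900969 (+), and hsa-miR-33b-5p, inside SREBF1 at chr17:17813897-17813916 (-), share the same seed, bases 2 to 8, set in capitals. The levels of these microRNAs were not analysed here.
hsa-miR-33a-5p: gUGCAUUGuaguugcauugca
hsa-miR-33b-5p: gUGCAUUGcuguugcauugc

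The pair of HSF1 probes left it unsettled whether HSF1 transcript was reduced in the knockdown-labelled cells. The brighter probe read 164.3 (control) and 58.2 (knockdown-labelled), while its detection p went the other way, from 0.00527 to 0.0. Of the other probes on that array, the 305 within 0.1 of a signal of 58.2 had detection values between 0.76 and 0.764, and none with a detection value of 1 had a signal under 119.7. That signal and its detection value therefore do not go together, and 58.2 cannot be taken as a level of HSF1. The dimmer probe read 77.9 and 81.3 and was detected on neither array. In the authors' processed values the difference was -1.09 on the log2 scale for the brighter probe and 0.08 for the dimmer one. Across probes those values follow the same signals, so they do not settle the point. The arrays are therefore called by their labels, and every direction here rests on them. Across all probes the median signal was 61.5 on the control array and 59.8 on the other, and 11707 and 12200 probes were detected, meaning a detection p under 0.01. Of 15 named markers of hepatocytes and hepatocellular carcinoma, 13 and 14 were detected, with summed signals of 85582.9 and 96225.5. All 14 markers of fibroblasts, endothelium and lymphocytes were detected on neither array. Of 6 myeloid markers, CSF1R, CD163 and PTPRC were detected on neither array. Of the 6, 1 was detected with the control RNA and 3 with the other (LYZ, CD14 and CD68 between them). The summed signals of the 6 were 849.7 and 1450.1. Both samples are labelled as the KYN2 line, so the markers are a check of identity and no measure of cell types mixed in a tissue. The part of this gap in the results was not tested.

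INSIG1, the sterol-sensing anchor of SCAP, was the only one of the 8 genes called higher, at 2.19-fold, and none was called lower. A gene was called at a difference of 2-fold or more, after background correction and normalization, if detected on both arrays. That held for 6 of the 8 genes. SREBF2 was detected on the knockdown-labelled array alone and STARD4 on neither. The count of 1 of 6 higher stands beside 9.89% of all 7511 genes detected on both arrays, and 0 of 6 lower beside 10.4%, so the count of calls lies near the background. At 1.5-fold, 4 of 6 were higher, INSIG1, NPC1, MYLIP and INSIG2, beside 20.8% of all genes, and 0 of 6 were lower, beside 22.3%. The median difference was 0.85 on the log2 scale over these 6 genes and -0.06 over all 7511, of which 46.7% lay above 0. Only SCAP lay below 0. These are counts over 6 genes of 1 loop on 1 pair of arrays, with no test.

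**Figure D1:**
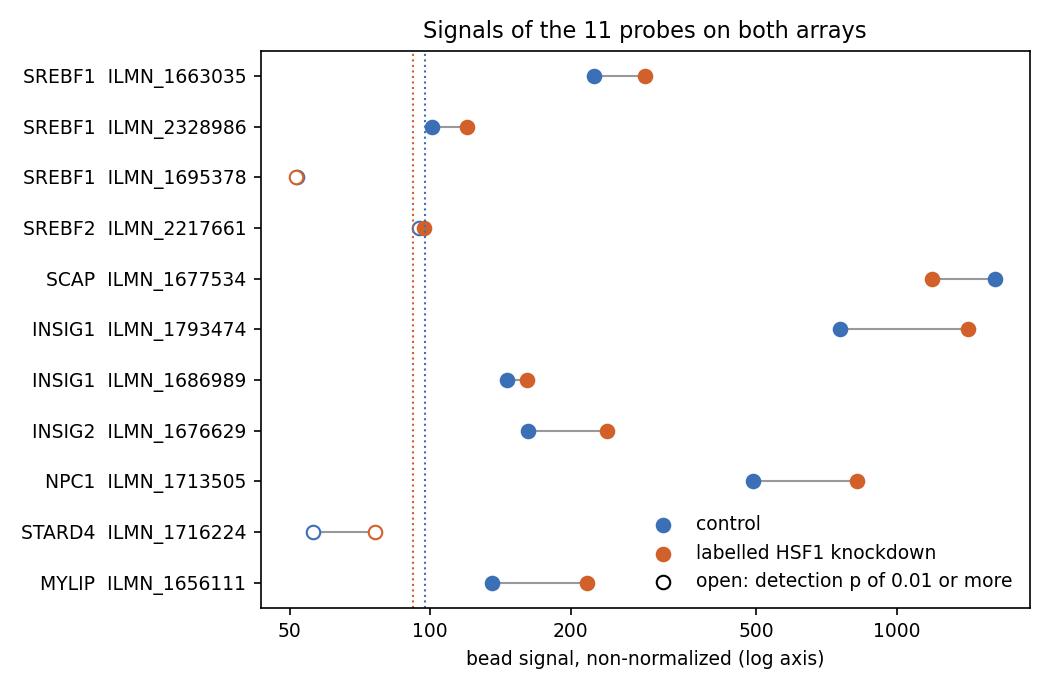
Non-normalized bead signal (log axis) of each of the 11 probes of the 8 genes on the control array (blue) and the array labelled HSF1 knockdown (orange), with open points where the detection p was 0.01 or more. Dotted lines mark the lowest signal of a detected probe, 97.4 on the control array and 91.8 on the other, where the brighter HSF1 probe was left out. The main INSIG1 probe goes from 755.9 to 1425.0, and SCAP goes the other way.

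SREBF1 and SREBF2 encode the transcription factors themselves, SREBP-1, which favours fatty acid genes, and SREBP-2, which favours sterol genes. The brightest SREBF1 probe read 225.0 on the control and 289.2 on the knockdown-labelled array. Its difference after normalization was 0.52 on the log2 scale, or 1.44-fold, larger than that of 77.1% of all genes and within 2-fold. A second SREBF1 probe for the same transcript read 100.7 and 120.0, a difference of 0.40. Both probes lay above 0 and within 2-fold. The third SREBF1 probe, assigned to another transcript, read 51.9 and 51.5, below the median of all probes on either array, and was not detected. SREBF2 was near the detection limit on both arrays, at 94.6 with a detection p of 0.01054 and 97.1 with a detection p of 0.00791. The difference of 0.07 between these dim signals gives no fold, because the level did not exceed the lowest detected level of the control array.

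SCAP, the escort that SREBPs need to leave the endoplasmic reticulum, was the only one of the 6 genes below 0. Its signal was 1623.2 in the control and 1188.3 on the knockdown-labelled array. The difference was -0.27, or 1.20-fold lower, within 2-fold, and 37.7% of all genes lay further down. It ran from -0.34 to -0.26 across the main processing, the other corrections or scalings and the authors' table.

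INSIG1 and INSIG2 encode paralogous anchors in the endoplasmic reticulum, of which INSIG1 is itself a known SREBP target. The INSIG1 probe that represents the gene read 755.9 in the control and 1425.0 on the knockdown-labelled array. Its signal ratio was 1.89, and the corrected and normalized difference was 1.13 in log2 terms, larger than that of 92.5% of all genes. The second INSIG1 probe, assigned to another transcript of the gene, read 145.9 and 160.9, a difference of 0.22. Both probes were detected on both arrays and lay on the same side, but the second stayed within 2-fold. The 0.913 between them was matched or passed by 6.43% of the 1352 genes with exactly 2 detected probes. Over those genes the spread of 1 probe's difference came to an SD of 0.208, estimated from the median absolute deviation of the gaps. That SD gives little weight to large gaps and takes in probe error and any difference between transcripts of a gene. It says nothing of the spread between cultures. With the mean of the pair the INSIG1 difference was 0.68 and the call was lost. INSIG2 had 1 probe, at 162.3 and 239.9, detected on both arrays with a difference of 0.77, or 1.71-fold, within 2-fold. INSIG2 ranged from 0.60 to 0.86 across the main processing, the other corrections or scalings and the authors' table.

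NPC1 and STARD4 handle sterol inside the cell. NPC1, the membrane protein that lets cholesterol out of late endosomes and lysosomes, read 491.2 in the control and 823.4 on the knockdown-labelled array. Its difference was 0.94, or 1.91-fold, just within 2-fold. It moved little across the corrections or scalings and the authors' table, from 0.88 to 0.94. STARD4, a soluble carrier of sterol between membranes, read 56.1 and 76.1, with detection p values of 0.42688 and 0.02767. It was detected on neither array, so its difference of 0.65 between signals near background is given as a value alone.

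MYLIP, the ubiquitin ligase that lowers lipoprotein receptors and answers to the oxysterol receptor LXR, read 136.0 in the control and 216.6 on the knockdown-labelled array. The difference was 0.93, or 1.91-fold, just within 2-fold. Its size changed with the processing, from 0.69 in the authors' processed values to 1.03 with median centring, where it passed 2-fold.

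**Figure D2:**
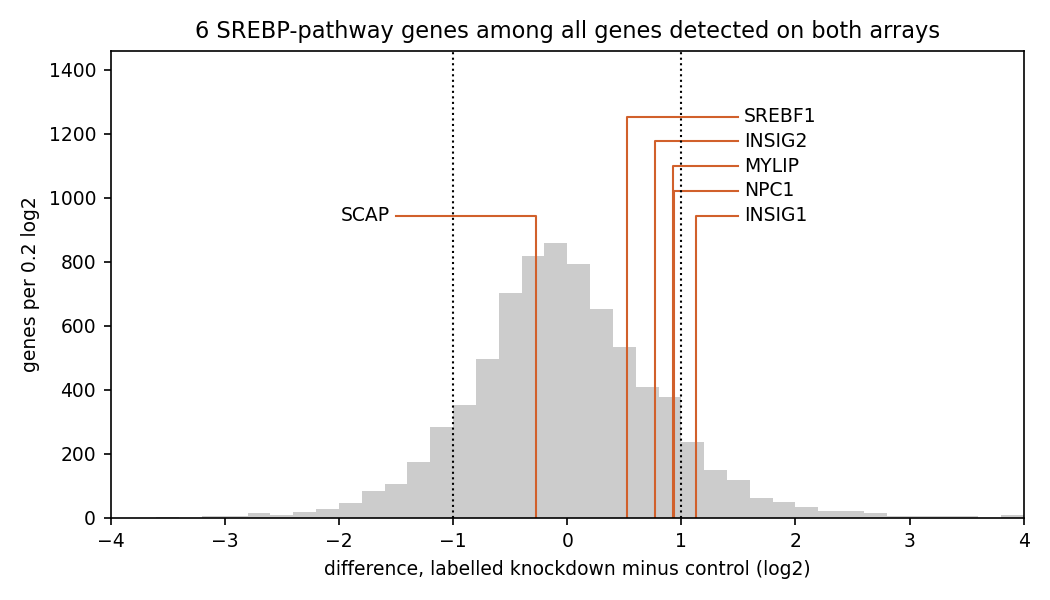
Number of genes per 0.2 of log2 difference, knockdown-labelled minus control, for the 7511 genes detected on both arrays (grey, with values beyond 4 on either side drawn at the edge), and the place of the 6 genes detected on both (orange lines). Dotted lines mark 2-fold, which INSIG1 alone passes, while SCAP is the only one left of 0.

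Differences between genes on the same pair of arrays do not depend on how an array is scaled as a whole. The INSIG1 difference exceeded that of SCAP by 1.40 on the log2 scale, which is 2.64-fold, and by 1.34 to 1.42 across the main processing, 3 other corrections or scalings and the authors' table. All of these keep the brighter INSIG1 probe. With the mean of detected probes the gap was 0.94, and with the second INSIG1 probe alone it was 0.49. NPC1 exceeded SCAP by 1.20, and by 1.13 to 1.26 across the corrections or scalings and the authors' table. INSIG2 exceeded SCAP by 1.04, and by 0.86 to 1.20 across them, so that gap did not always reach 2-fold. INSIG1 exceeded its paralogue INSIG2 by 0.36 and SREBF1 by 0.61 with the brightest probes. With the mean of detected probes INSIG1 lay below INSIG2, at a gap of -0.09, and its gap to SREBF1 was 0.22, so the order of the anchor genes depends on the probe. These pairs were picked after the values were seen and have no test. They describe unequal readings of the anchor genes and SCAP on 1 pair of arrays, not which of them changed. Probe error and the spread between cultures were not set apart from a change.

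**Figure D3:**
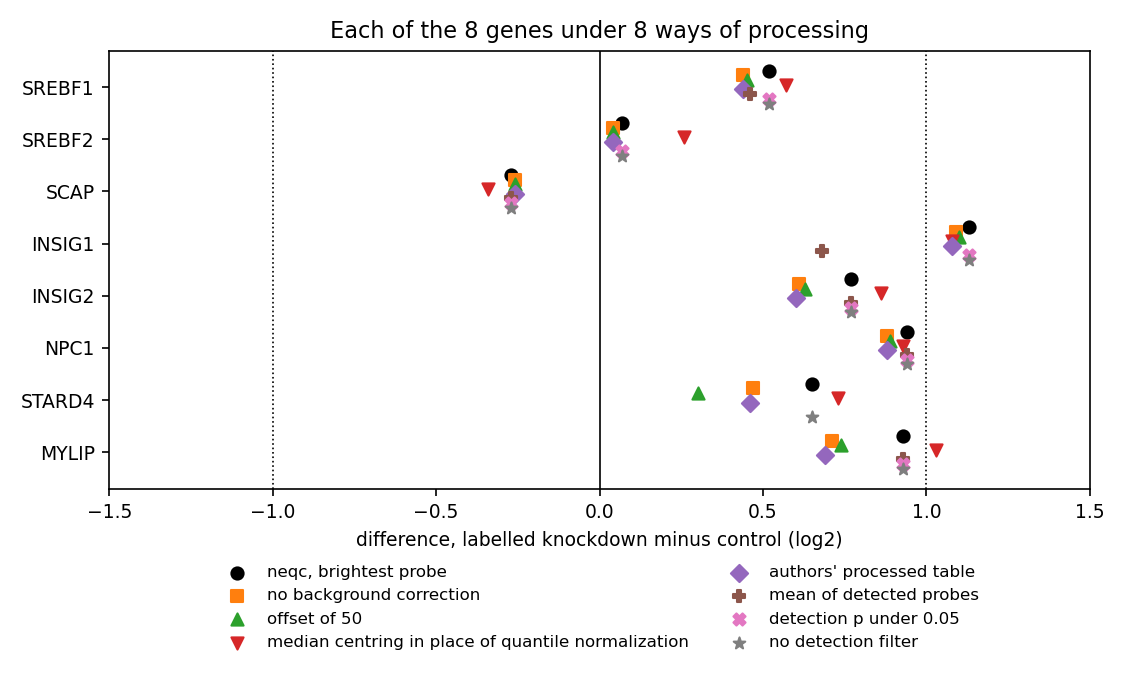
Log2 difference, knockdown-labelled minus control, of each of the 8 genes under 8 ways of processing (one symbol each, where a value could be had). A change of detection threshold cannot move a gene's own value, nor can the mean of probes for a gene with 1 probe. Every symbol of SCAP lies left of 0 and all those of the other genes right of it; INSIG1 falls from 1.13 to 0.68 with the mean of its probes. SREBF2 and STARD4, which were not detected on both arrays, are drawn as values alone.

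Among enzymes of sterol synthesis, the main known targets of SREBP-2, 9 of 17 rose, which is 52.9% beside 9.89% of all genes. Of 21 listed enzymes, 17 had a named probe and all 17 were detected on both arrays. Besides the 9, 0 fell, beside 10.4% of all genes, and 8 stayed within 2-fold. The median was 1.02 beside -0.06 over all genes. The largest differences were in MSMO1 (2.08), the sterol C4 methyl oxidase, SC5D (1.76), the sterol desaturase, NSDHL (1.73), which removes the C4 carboxyl group, and TM7SF2 (1.33), a sterol reductase. MSMO1 went from a signal of 682.0 to 2417.7, and PMVK (-0.14), a kinase of the mevalonate pathway, was the only one below 0. The number higher was between 5 and 9 over the other processing settings at 2-fold, with 0 lower in each. The 5 came from the authors' processed table.

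Genes of fatty acid and phospholipid synthesis that SREBPs drive were split. Of 16 listed, 15 had a named probe. Both arrays detected 12 of them. Of these 12, 3 rose, beside 9.89% of all genes, 0 fell, beside 10.4%, and 9 stayed within 2-fold. The median was 0.02 beside -0.06 over all genes. The rises were in ACSS2 (1.79), which makes acetyl-CoA from acetate, LPIN1 (1.29), a phosphatidate phosphatase, and SCD (1.01), the stearoyl-CoA desaturase. The number higher was 2 with median centring and in the authors' processed table. AACS, the acetoacetyl-CoA synthetase, was at -0.74, and FASN, the fatty acid synthase, at 0.04 with signals of 7993.0 and 7599.0. A further 2 genes, named after their values were seen, were detected on the control array alone. These were GPAM, the first enzyme of glycerolipid assembly in mitochondria, with a bound of -3.74 in log2 terms, and the malic enzyme gene ME1, with a bound of -1.76.

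The machinery that cuts, carries, retains or destroys SREBPs and their partners stayed mostly within 2-fold. Of 24 listed, 21 had a named probe. Both arrays detected 17, of which 0 rose, 1 fell and 16 stayed within 2-fold. That is 0% higher and 5.88% lower, beside 9.89% and 10.4% of all genes. The median was -0.09. The fall was in HSPA5 (-1.14), the chaperone of the endoplasmic reticulum, which lay under 2-fold without background correction, with an offset of 50 and in the authors' table. Next in size were SEC23A (0.93), of the coat that carries SCAP and its cargo to the Golgi, SPRING1 (0.88), a factor needed for SREBP cleavage, and ERLIN2 (-0.78), which takes part in sterol-dependent breakdown of proteins in that membrane. Named after their values were seen, the protease genes that cut SREBPs were MBTPS1, at 0.27, and MBTPS2, detected on the control array alone with a bound of -0.95. SEC24D, another coat gene, was also detected there alone, with a bound of -0.41. GPER1, a membrane receptor for oestrogen that was also on the list, was detected on the knockdown-labelled array alone, at 52.7 and 1192.4, at least 4.43 higher.

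A list of sterol transport genes holds carriers of sterol between endosomes and other membranes. It also holds enzymes such as SOAT1 and lysosomal membrane proteins such as LAMP1 and LAMP2. In this list 2 of 16 genes were higher, which is 12.5% and near the 9.89% of all genes. Another 14 lay within 2-fold and 0 were lower, beside 10.4% of all genes, with a median of 0.42. The 16 are those detected on both arrays of 19 with a named probe and 21 listed. The genes past 2-fold were LAMP2 (2.04), a lysosomal membrane protein, and OSBPL1A (1.36), an oxysterol-binding protein of late endosomes. OSBPL8 (0.92) and LAMP1 (0.87) came next and lay within 2-fold. NPC2, the soluble partner that hands cholesterol to NPC1, was at 0.87, from 4399.4 to 7265.0, close to the 0.94 of NPC1. It is named after its value was seen.

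Genes of LXR, the oxysterol receptor, and of sterol efflux went both ways. Of 14 listed, 11 had a named probe. Both arrays detected 7, of which 2 rose, 1 fell and 4 stayed within 2-fold. That is 28.6% higher and 14.3% lower, beside 9.89% and 10.4% of all genes. The median was 0.25. The rises were in SMPDL3A (1.59), a phosphodiesterase gene, and LPCAT3 (1.25), which remodels phospholipids, both known LXR targets. The fall was in ABCA1 (-1.03), the exporter of cholesterol and a further LXR target, from 599.6 to 294.3, and it lay under 2-fold without background correction, with an offset of 50 and in the authors' table. NCOA6, a coactivator, was at 0.54. MYLIP, at 0.93, thus lay on the side of SMPDL3A and LPCAT3 and opposite ABCA1. NPC1 and ABCA1 also lay on opposite sides. Detected on 1 array each, and named after their values were seen, were the efflux genes ABCG1, at least 0.18 higher on the knockdown-labelled array, and ABCG5, with a bound of -0.20.

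In a list of lipoprotein and scavenger receptors and their adaptors, 3 of the 7 genes detected on both arrays fell. That is 42.9% beside 10.4% of all genes. The list and the 7 also hold TFRC (-0.41), the transferrin receptor, which is not a lipoprotein receptor and is named after its value was seen. Of 13 listed, 11 had a named probe. Both arrays detected 7, of which 0 rose, beside 9.89% of all genes, 3 fell and 4 stayed within 2-fold. The median, with TFRC counted, was -0.91 beside -0.06 over all genes. The median was -0.66 over 8 genes at a detection p under 0.05, and -0.30 over all 11 with no detection filter, where 1 was higher and 3 lower. The falls were in DAB2 (-2.43), an endocytic adaptor, LRP8 (-1.18), a receptor that MYLIP is known to target, and SCARB1 (2.01-fold lower), the receptor for high-density lipoprotein. Among them only LRP8 is a receptor of the low-density lipoprotein family, on which MYLIP acts. DAB2 went from 393.9 to 103.6, and CD36 (-0.91), a scavenger receptor, lay within 2-fold. Without background correction, with an offset of 50 or in the authors' table, 1 of the 7 fell. VLDLR, another MYLIP target, named after its value was seen, was detected on the knockdown-labelled array alone and was at least 0.53 higher. These lists were put together with earlier results of these arrays known, so their directions are a description.

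**Figure D4:**
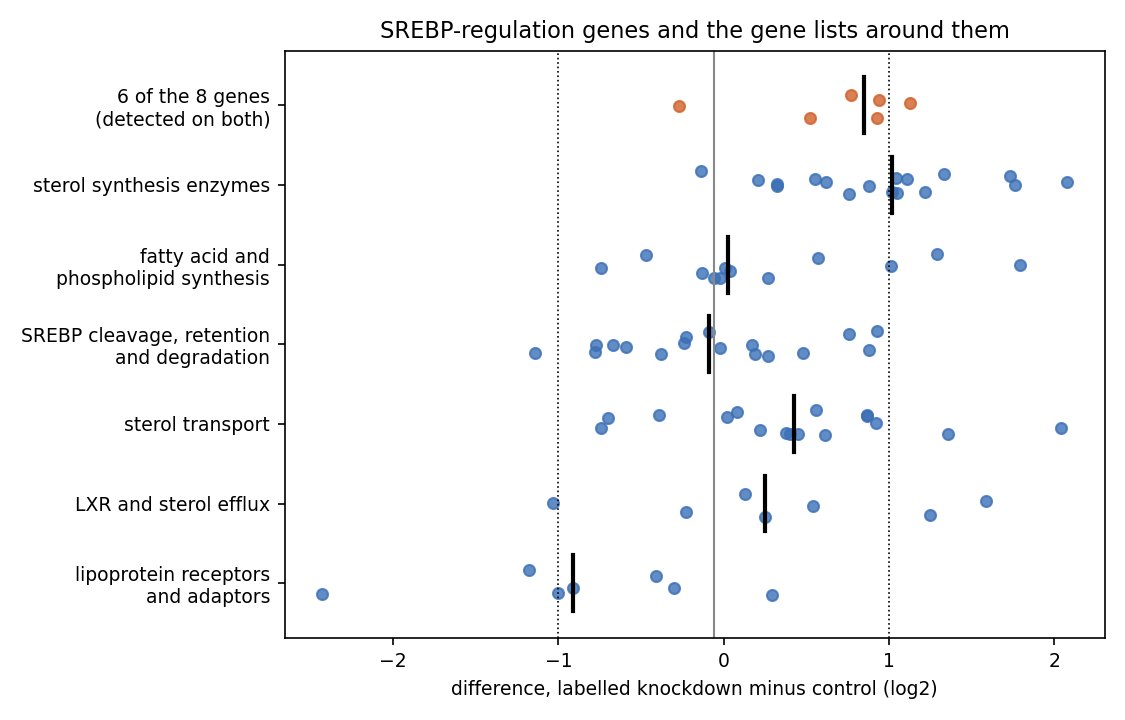
Log2 difference, knockdown-labelled minus control, of each gene detected on both arrays, for 6 of the 8 genes (orange) and for 6 lists of related genes (blue), spread vertically for legibility. Black bars are medians, from 1.02 for sterol synthesis to -0.91 for lipoprotein receptors and adaptors, a list that also holds TFRC. The grey line is the median of all genes at -0.06, and dotted lines mark 2-fold.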

How the data were processed

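Total RNA of 2 KYN2 samples was measured on 1 BeadChip array each. The table deposited as non-normalized holds bead intensity on a linear scale, and whether a background was subtracted is not given in the sources used here. Its header is 1 field shorter than its rows, with no name for the array address, so each signal was read 1 field to the right of its header name. The detection values, which rise with the signals read in this way, bear this out. The detection columns, as deposited, are a fraction between 0 and 1. It rises with the signal, so 1 minus it was taken as the detection p. A second deposited table holds the authors' processed log2 values, whose baseline is unknown. Their column medians are 0.00222 and -0.00275. For the 10804 probes detected on both arrays, its differences followed the log2 signal ratio with a slope of 0.981 (r = 0.996 across probes, which are not replicates), which settles its direction. The scanner, its software and the position and scan date of each chip are not named in the sources used here.

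Gene names came from the platform annotation, which gave 1 gene symbol for 27577 of 48802 probes, several for 13 and none for 21212. Background correction and quantile normalization used neqc (limma 3.58.1, R 4.3.3) with an offset of 16, which draws small signals together and so understates folds of dim genes. The brightest named probe stood for its gene. Differences are knockdown-labelled minus control. Where 1 array alone detected a gene, a bound ("at least") was computed against the lowest detected level of the other array (5.84 for the control array, 5.70 for the knockdown-labelled one) or the gene's own level there, whichever was higher. All 8 genes, all probes of HSF1 and, in each list, up to 4 genes with the largest difference were named by rule. The 8 genes, the lists and the settings were chosen with earlier results of these data known. The procedure was tested on simulated data, made from the control array with assumed noise and changes only in probes well above background. Such data do not cover changes in dim genes or the spread between cultures. The number of arrays limits the precision, and nothing says that the samples stand for separate cultures.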

Additional observations from a re-analysis of the deposited data

How the results depend on the processing

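No paired analysis was possible because each group holds 1 array. Each of the 8 differences and the counts at 2-fold were recomputed under 8 other settings where a value could be had. Of 85 such values, 75 stayed close to the one reported and 10 moved. Close means within 1.5 times for a count and within the probe SD of 0.208 for a difference. Some of the 75 could not have moved. A change of detection threshold leaves a gene's own difference as it was. The mean of detected probes does so for a gene with 1 probe. No gene of the 8 changed sign under any setting run for it. The number of the 8 genes called higher was 2 with median centring in place of quantile normalization, where MYLIP passed 2-fold, 0 with the mean of detected probes and 4 at 1.5-fold. INSIG1 was at 0.68 with the mean of detected probes. MYLIP was at 0.71 without background correction and 0.69 in the authors' processed table, and STARD4, detected on neither array, at 0.30 with an offset of 50. Over all genes, 743 were higher and 779 lower. Without a detection filter 1220 of 18665 genes were higher, and at 1.5-fold 1562 were higher and 1676 lower. The loss of the INSIG1 call follows from its second probe at 0.22, and the larger counts from more genes or a smaller fold; the cause of the other moves was not tested. Signals close to background limit what can be said of SREBF2 and STARD4.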
